A study of Mus musculus with 9 samples.

Results

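Intergenic circRNAs are the circular RNAs whose locus the deposited table assigns to an intergenic region, with no host gene. They were taken as all table entries of that type, 936 of 37751 circRNAs (2.48%), and they held 24840 back-splice reads (0.927% of all reads). The other circRNAs were 33054 exonic and 3761 intronic ones. They were measured in C2C12, a line of mouse skeletal muscle precursors that fuse into myotubes in low serum, with 3 libraries at each of 3 time points. Day 0 cells were proliferating and not yet confluent, in DMEM with fetal bovine serum, and day 3 and day 6 cells had spent those days in DMEM with horse serum after reaching confluence. All 9 libraries came from this 1 line, so the days differ in medium, cell density and time together, and these cannot be told apart. Whether a day's 3 libraries were separate cultures is not stated in the labels. The p-values therefore reflect the variation among these libraries alone, and that variation may be technical.

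A circRNA forms when the spliceosome joins the end of an exon back to the start of the same or an earlier exon, which leaves a closed loop without free ends. Most known circRNAs are made of annotated exons of protein-coding genes, they resist exonucleases, and many accumulate in non-dividing cells. The label intergenic depends on the gene annotation in use, and the annotation behind the deposited types is not stated in the labels or files used here. In muscle cells, differentiation switches on sarcomere genes and brings cell division to a stop.

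Although the table gives them no host, 93 of the 191 intergenic circRNAs with both ends at an annotated exon edge could be read as exons of 1 transcript of the GENCODE M21 annotation. Their back-splice junctions are shown for the loci on which the results turn. Each line gives the last 20 bases before the junction in lower case and the first 20 bases after it in capitals, on the strand of the gene, from GENCODE M21 transcripts of build GRCm38.
Clasp2 exons 2 to 7, chr9:113761590-113786634, plus strand: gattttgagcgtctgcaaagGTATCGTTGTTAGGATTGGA
Clasp2 exons 2 to 6, chr9:113761590-113773777, plus strand: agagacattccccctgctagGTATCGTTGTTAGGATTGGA
Clasp2 exons 3 to 7, chr9:113766568-113786634, plus strand: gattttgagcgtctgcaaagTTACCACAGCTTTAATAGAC
Hdac9 exons 14 to 20, chr12:34215011-34287575, minus strand: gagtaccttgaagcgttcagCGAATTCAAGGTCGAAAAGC
Hdac9 exons 17 to 20, chr12:34215011-34221259, minus strand: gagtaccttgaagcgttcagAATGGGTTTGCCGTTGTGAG
Ppp6r2 exons 2 to 4, chr15:89242160-89246340, plus strand: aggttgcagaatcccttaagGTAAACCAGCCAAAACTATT
Lncppara exons 3 to 6, chr15:85693537-85704290, plus strand: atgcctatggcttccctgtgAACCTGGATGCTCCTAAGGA
Gm30624 exons 2 to 3, chr10:111727370-111730754, plus strand: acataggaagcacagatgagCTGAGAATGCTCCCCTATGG
Gm45194 exons 4 to 5, chrX:111963540-111967721, plus strand: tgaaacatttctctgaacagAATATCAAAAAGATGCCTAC
The first Clasp2 circle shares its start with the second and its end with the third, and the first Hdac9 circle shares its end with the second. These 93 circles lay in 39 genes, held 5670 reads and had a median of 4 exons with a median spliced length of 520 bases if all exons between the ends are kept.

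The 5 circles at Ccdc141, a gene for a coiled-coil protein that lies beside the titin gene, share 1 end, chr2:77173607, which lies 2971 bp upstream of the GENCODE gene (chr2:77009902-77170636, minus strand) and inside the longer RefSeq gene. They differ in the exon at which they close, and each closed exactly at an exon end of a transcript of 23 exons. The last 20 bases of those exons, on the gene's strand, are given here because they are the side of the junction that tells the 5 circles apart.
Ccdc141 exon 8, circle chr2:77074836-77173607, minus strand: agccaagtagactcctgccg
Ccdc141 exon 7, circle chr2:77089070-77173607, minus strand: tttttaccagtgctaacaag
Ccdc141 exon 6, circle chr2:77108363-77173607, minus strand: acctgatagtcaaagcaaag
Ccdc141 exon 5, circle chr2:77124122-77173607, minus strand: gggaccaacaagaaaaccag
Ccdc141 exon 2, circle chr2:77168511-77173607, minus strand: tgcttctggccaagcttaag

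The spans of intergenic circRNAs, from the deposited start to the deposited end, ran from 90 to 493133 bp, with quartiles of 6179 and 35941 bp around a median of 16134 bp. Exonic circRNAs had a median span of 9184 bp and intronic ones of 17137 bp. Only 58 intergenic circRNAs were under 1 kb, and 42 (4.49%) were over 100 kb, against 1.91% of exonic and 5.93% of intronic circRNAs. The plus strand held 505 of them and the minus strand 431. Chromosome 15 held the most, 88 of its 2015 circRNAs (4.37%). Among assembled chromosomes with an intergenic circRNA, their share of the chromosome's circRNAs ran from 1.11% on chromosome 4 to 6.11% on chromosome X. The circRNAs listed on chromosome Y included no intergenic one. On the unplaced scaffold JH584304.1 the table had 8 circRNAs, of which 7 were intergenic. A circBase identifier, which marks a circRNA listed in that public collection, was given for 20 intergenic circRNAs (2.14%), against 2.98% of exonic and 0.585% of intronic ones.

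The longest were chr13:67052287-67545419 (493133 bp), from Zfp712 to Zfp748 across a cluster of zinc finger genes, chr5:135910987-136392393 (481407 bp), from Ywhag to Cux1, and chr11:4780578-5215531 (434954 bp), from Nf2 to Kremen1. Each was listed in 1 library, with 3, 3 and 17 reads. Among those in at least 2 libraries, the longest were both from Anxa11 to Gm2274, at 294785 and 287928 bp, followed by one of 277966 bp with 1 end in Supt3. At the other extreme, chr10:128441874-128441963 was 90 bp long, lay 433 bp from Rnf41, had a circBase identifier and was listed in 4 libraries with 25 reads. The next shortest were 210 bp in the keratin gene Krt80 and 215 bp at Gm5436, each in 1 library with 5 and 8 reads. In at least 2 libraries, the next shortest were 344 bp in the pseudogene Gm9770 and 353 bp in Ttc32.

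Types were compared within each library, so that both types share its depth, with an exact two-sided paired sign-flip test over the 9 libraries and Benjamini-Hochberg adjustment over 10 comparisons. The smallest p this test can give is 0.00391, and since the libraries share circRNAs, their 9 values are not independent for circRNAs that recur. The median span of listed intergenic circRNAs averaged 16569 ± 2110 bp and that of exonic ones 9493 ± 324 bp (SD, n = 9 libraries). Intergenic spans were higher in 9 of 9 libraries (exact p = 0.00391, adjusted p = 0.00558). Against intronic circRNAs, at 16666 ± 1661 bp, the mean difference was -96.3 bp and within the spread of the libraries (exact p = 0.895, adjusted p = 0.994).

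Intergenic circRNAs carried fewer reads than exonic ones. The median count of a listed intergenic circRNA averaged 10.4 ± 1.94 reads and that of an exonic one 13.2 ± 1.92 reads (SD, n = 9 libraries). It was lower in 9 of 9 libraries (exact p = 0.00391, adjusted p = 0.00558), while the intronic median averaged 10.4 ± 1.67 reads. Of the intergenic circRNAs listed in a library, 46.6 ± 6.65% were listed in no other library, against 25.2 ± 2.71% of exonic ones, which was higher in 9 of 9 libraries (adjusted p = 0.00558, exact paired test). Intronic circRNAs stood at 49.7 ± 5.19%, and intergenic ones were lower in 7 of 9 libraries (exact p = 0.0391, adjusted p = 0.0488), a call that was lost at adjusted p-values of 0.0684 to 0.0977 when any 1 library was left out other than day 0 replicate 1 or day 6 replicate 1. The part of the lower read counts in this lower recurrence was not tested.

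**Figure D1:**
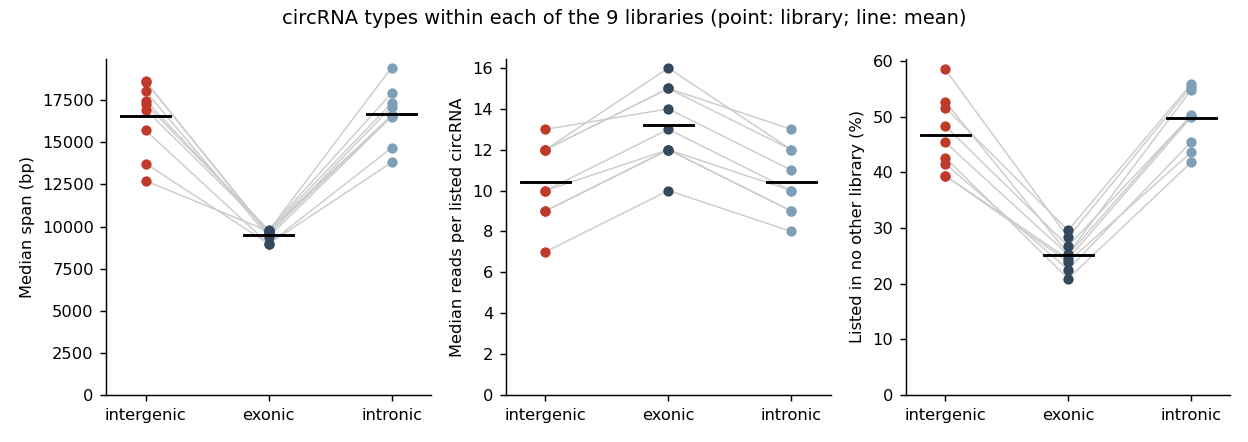
Median span, median reads per listed circRNA and percent of circRNAs listed in no other library, for intergenic, exonic and intronic circRNAs in each of the 9 libraries (points, joined within a library by grey lines; black lines are means). Intergenic circRNAs lie at longer spans, fewer reads and lower recurrence than exonic ones in all 9 libraries, and close to intronic ones.

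The gene annotation places most of these circles at or in genes. Against GENCODE M21 genes of the same strand, 211 (22.5%, 95% Wilson interval 19.98 to 25.3%) had both ends in 1 gene, and they held 41.4% of intergenic reads. In 113 (12.1%, 10.1 to 14.3%) the ends lay in different genes, and in 300 (32.1%, 29.1 to 35.1%) only 1 end lay inside a gene. In 21 (2.24%, 1.47 to 3.41%) both ends lay outside genes, with a whole gene between them. Circles of the classes before can hold whole genes too and are not counted in these 21. The remaining 291 (31.1%, 28.2 to 34.1%) overlapped no gene of their strand and held 22% of reads. Recurrence differed between these classes as a description, with 33.6% of those with both ends in 1 gene listed in at least 2 libraries, 28.3% of those with ends in different genes, 20.7% of those with 1 end inside, 9.52% of those around a whole gene and 21% of those without a gene. Of the 211 circles with both ends in 1 gene, 163 lay in protein-coding genes and 24 in lincRNA genes.

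**Figure D2:**
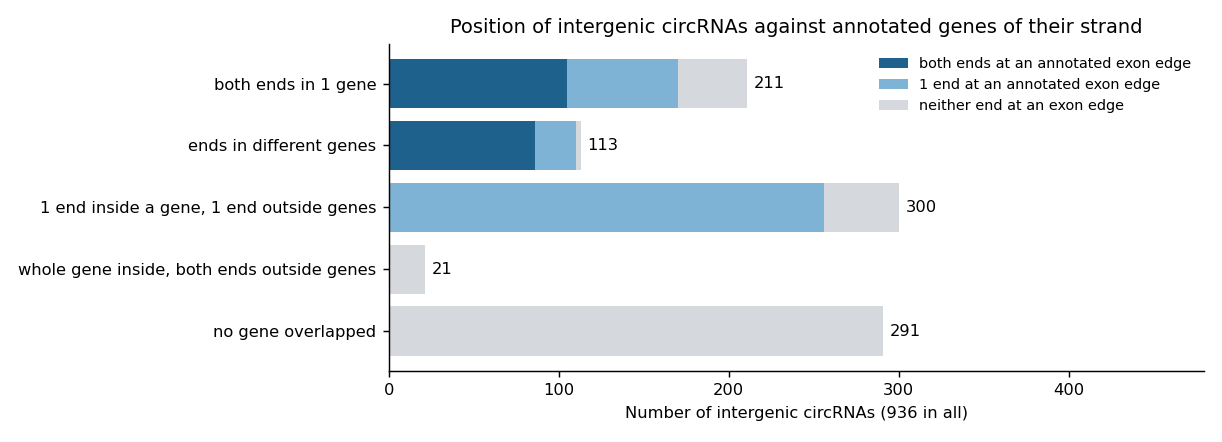
Number of intergenic circRNAs (x axis) in each class of position against annotated genes of their strand, with colours for how many ends lie exactly at an annotated exon edge. Both ends are at exon edges in 105 of the 211 circles within 1 gene and in 86 of the 113 with ends in different genes, and 1 end is at an edge in 256 of the 300 that have 1 end inside a gene.

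Both ends were at exon edges in 20.4% of intergenic circRNAs, 1 end in 36.9% and neither in 42.7%, against 89.6% with both ends at edges among exonic and 4.57% among intronic circRNAs. The deposited types themselves rest on an annotation, so these shares are a description. Of the 300 circles with 1 end inside a gene, 132 reached beyond its start and 168 beyond its end. The inside end was at an exon edge in 114 (86.4%) of those reaching upstream and 142 (84.5%) of those reaching downstream. The outside end lay a median of 2971 bp upstream (range 11 to 93807 bp) or 3731 bp downstream (range 3 to 161547 bp) of the gene.

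The choice of annotation moved these counts. By the RefSeq gene table of GRCm38.p6, which was used without strand, 324 circles (34.6%) with 62.3% of intergenic reads had both ends in 1 gene, and 167 (17.8%) overlapped no gene. Of the 291 circles without a GENCODE gene of their strand, 76 (26.1%), with 47.6% of the reads of these 291, had both ends in 1 RefSeq gene. No gene of either annotation on either strand was overlapped by 122 circles (13.0%), which held 1397 reads (5.62%). Of these, 20 were listed in at least 2 libraries, and the most recurrent in 7. For the 286 circles without a gene whose chromosome has a gene on the same strand, the nearest one lay a median of 31950 bp away, with 35 within 5 kb and 49 beyond 100 kb.

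Many intergenic circles have an end at the same base as another. In all, 393 (42.0%), with 59.6% of intergenic reads, shared an end with another intergenic circle, and they formed 119 families joined by common ends, 63 of them pairs. Of the circles that shared an end, 38.4% were listed in at least 2 libraries, against 14.2% of the rest. Sharing an end with an exonic or intronic circRNA was seen in 200 (21.4%). Both of the largest families, of 13 and 12 circles, lay in Hdac9, and families of 10 lay in Spire1, Lncpint and Ppp6r2.

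The neighbour of most intergenic circles was Hdac9, a histone deacetylase known to restrain MEF2 factors in muscle. Its gene, chr12:34047580-34917095 on the minus strand, held 32 intergenic circles with 951 reads, 14 of them in at least 2 libraries and 12 with both ends at exon edges. The next genes by this count were Lncpint, a long noncoding RNA induced by p53, with 13 circles and 851 reads, and Hypm, nearest to 11 circles on chromosome X with 1257 reads. They were followed by Ppp6r2, a regulatory subunit of protein phosphatase 6, with 10 circles and 246 reads, and Spire1, an actin nucleator, with 10 circles and 1031 reads. The 32 Hdac9 circles lay from 38282 to 838619 bp from the gene's start. The table names Hdac9 as host of 13 other circRNAs with 348 reads, and these lay between 479717 and 543217 bp from the start. No intergenic circle of Hdac9 lay wholly within that stretch, and 2 began at an exon edge inside its far end, at 542957 bp. The intergenic circle with the most reads, chr12:34827637-34878813, was listed in 8 libraries with 195 reads, and chr12:34753963-34755521 in 7 libraries with 95 reads. Neither has an end at an annotated exon edge.

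**Figure D3:**
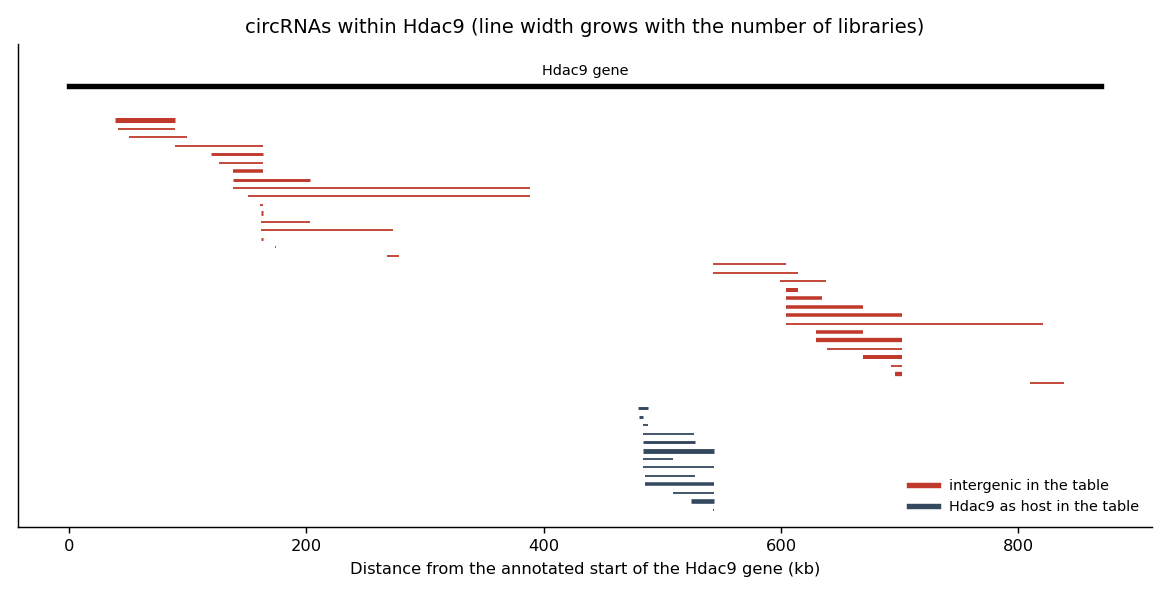
Position of the circRNAs within Hdac9, as distance in kb from the annotated start of the gene (x axis), 1 line per circRNA, wider for more libraries. The 32 intergenic circles (red) lie on both sides of the stretch from 479717 to 543217 bp that holds the 13 circRNAs with Hdac9 as host in the table (dark), and 2 of them overlap its far end.

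Summed over its 32 intergenic circles, Hdac9 had 275, 123 and 171 CPM (a count rescaled to equal TMM-adjusted totals of circRNA reads) in the day 0 libraries, 533, 354 and 402 CPM at day 3 and 458, 402 and 433 CPM at day 6. The later libraries were all above the day 0 ones, with means of 190 ± 77.4 CPM at day 0, 430 ± 92.6 CPM at day 3 and 431 ± 28.3 CPM at day 6 (SD, n = 3 each). Both differences from day 0 had an unadjusted exact permutation p of 0.1, the smallest that 3 libraries against 3 can give. The 13 circRNAs deposited under Hdac9 had a summed log2 fold change of 2.12 ± 0.88 (SE) for day 6 against day 0 (edgeR adjusted p = 0.195) and of 2.12 ± 0.88 for day 3 against day 0 (adjusted p = 0.252), which missed the threshold. Host sums here and below were chosen for description after their values were seen. In these bulk RNAs, fewer cells of a kind and less RNA per cell cannot be told apart.

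The 13 Lncpint circles summed to 364 ± 88.3 CPM at day 0, 332 ± 61.2 CPM at day 3 and 281 ± 68.6 CPM at day 6 (SD, n = 3 each), with overlapping libraries. The 10 Spire1 circles summed to 279 ± 62.7, 352 ± 36.2 and 513 ± 217 CPM at days 0, 3 and 6, and the 10 Ppp6r2 circles to 75.6 ± 39.3, 139 ± 45.1 and 60.5 ± 9.84 CPM. The 9 circles of Lncppara, a noncoding RNA gene, summed to 52.2 ± 27.3, 110 ± 32.3 and 116 ± 19.1 CPM. Of these loci, the Lncppara day 6 libraries were all above the day 0 ones, and the Ppp6r2 day 6 libraries were all below the day 3 ones. Each had an unadjusted exact permutation p of 0.1, the smallest that 3 libraries against 3 can give.

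Recurrence was low. Of the 936 circRNAs, 708 (75.6%) were listed in 1 library only, 228 (24.4%) in at least 2 and 10 (1.07%) in all 9, against 59.1% in 1 library and 4.36% in all 9 among exonic circRNAs. The 10 found everywhere held 26.8% of intergenic reads and the 708 found once held 26.7%. The smallest count above 0 is 2 in the deposited counts, so a circRNA with 1 read in a library appears there as 0. By day, 262 were listed only at day 0, 248 only at day 3 and 243 only at day 6, and 71 (7.59%) at all 3 days, against 18.3% of exonic circRNAs. Among the 228 in at least 2 libraries, 7 were confined to day 0, 23 to day 3 and 15 to day 6. In the same 228, 49 (21.5%) were listed at days 3 and 6 and not at day 0, against 32 at days 0 and 3 only and 31 at days 0 and 6 only. Listing at days 3 and 6 only was seen in 16.3% of exonic and 20.2% of intronic circRNAs in at least 2 libraries.

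The 9 libraries held 208787 to 443955 back-splice reads and listed 7363 to 11119 circRNAs each. Intergenic circRNAs numbered 176, 110 and 182 in the day 0 libraries, 196, 170 and 175 at day 3 and 143, 154 and 213 at day 6, with overlapping days (exact permutation p = 0.6 for the first pair of days, 0.7 for the first and last and 0.7 for the last pair). Their share of circRNA reads was 0.924, 0.848 and 0.824% at day 0, 0.959, 0.933 and 0.968% at day 3 and 0.978, 0.937 and 0.943% at day 6. The 95% Wilson interval ran from 0.790 to 0.859% in the lowest library and from 0.937 to 1.02% in the highest, and it covers counting error only. All later libraries stood above all day 0 libraries. Day 0 averaged 0.865 ± 0.0520%, day 3 averaged 0.953 ± 0.0179% and day 6 averaged 0.953 ± 0.0220% (SD, n = 3 each). The differences of 0.0882 and 0.0876 percentage points each had an exact p of 0.1 (adjusted p = 0.15), the smallest that 3 libraries against 3 can give. Without the 5 Ccdc141 circles, the differences were 0.0294 points (exact p = 0.5) and 0.0304 points (exact p = 0.4), and the days overlapped. Without the Gm9762 circle, they were 0.0628 points (exact p = 0.4) and 0.0720 points (exact p = 0.2), and the days also overlapped. The circles left out were chosen after the data were seen, so these values without them are a description.

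**Figure D4:**
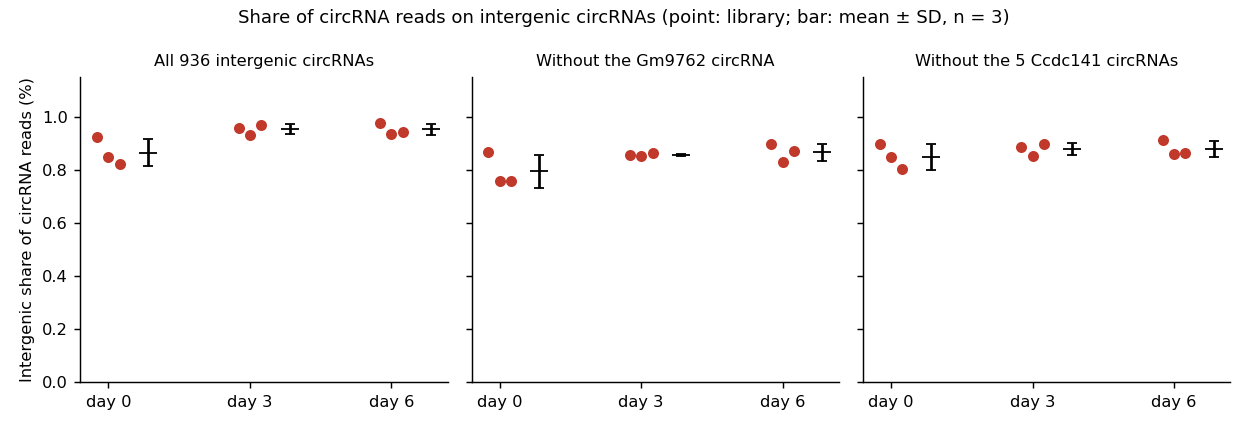
Percent of circRNA reads on intergenic circRNAs in each library (points) by day, with mean and SD (n = 3), for all 936 circRNAs, without the Gm9762 circRNA and without the 5 Ccdc141 circRNAs. The day 0 libraries lie below all later ones in the first panel, at 0.824 to 0.924%, and overlap with them in the other panels. The circRNAs left out were chosen after the data were seen.

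In the test of single circRNAs over the whole table, 103 intergenic circRNAs (11% of them, with 62.8% of their reads) passed the filter on low counts among 8153 in all. For day 3 against day 0, edgeR's quasi-likelihood test called 1 of the 103, which was higher, at a Benjamini-Hochberg adjusted p under 0.05, where 1.58% of all tested circRNAs were called, 1.31% higher and 0.27% lower. For day 6 against day 0 it also called 1 of the 103, higher, where 1.99% of all were called, 1.47% higher and 0.515% lower. For day 6 against day 3 it called 0 of the 103, where 0.0613% of all were called, all of them lower. DESeq2 gave an adjusted p to 50, 53 and 38 of the members in the same order. Of these it called 1, 9 (6 higher and 3 lower) and 0, where it called 5.26, 8.74 and 0.538% of all circRNAs it tested. At an unadjusted edgeR p under 0.05 stood 12 members (11.7%) for day 3 against day 0, 15 (14.6%) for day 6 against day 0 and 3 (2.91%) for the last pair, beside 9.51, 11.6 and 4.34% of all circRNAs tested. Of the table-wide calls, edgeR had 107 higher and 22 lower and DESeq2 163 higher and 99 lower for day 3 against day 0, while for day 6 against day 0 edgeR had 120 higher and 42 lower and DESeq2 263 higher and 186 lower. With DESeq2 the median log2 fold change of the circRNAs it tested was -0.01 for day 3, against 0.12 with edgeR. With DESeq2, the 9 called of 53 members for day 6 against day 0 were a larger share than in the whole table. In edgeR the members' shares are near those of the whole table.

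Complete separation of the 3 later from the 3 earlier libraries is given beside its frequency in the whole table. Against day 0, the members' share was above that of the table for higher and below it for lower. These counts are small, and the gaps were not tested. For day 3 against day 0, 12 members (11.7%) were higher and 4 (3.88%) lower in all day 3 libraries, beside 9.65 and 6.43% of all circRNAs tested. For day 6 against day 0 there were 11 higher (10.7%) and 4 lower (3.88%), beside 8.62 and 7.81% of all. The last pair of days gave 3 higher (2.91%) and 4 lower (3.88%) at day 6, beside 3.77 and 5.36%. Among the members with reads at both days, the median log2 fold change was 0.32 for day 3 against day 0, 0.08 for day 6 against day 0 (69 members each) and 0.02 for the last pair (90 members). All circRNAs tested, including those with no reads in 1 group, had medians of the fitted log2 fold change of 0.12, 0.01 and -0.09. The fitted medians of all 103 members were 0.59, 0.78 and 0.01. With members that had no reads in 1 group set at their bound, the members' medians were 0.51, 0.45 and 0.01. The 2 comparisons with day 0 share its libraries.

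The called circle was that of Ccdc141 exon 8, chr2:77074836-77173607, which spans 98772 bp. It had 0, 0 and 0 reads in the day 0 libraries, 64, 42 and 60 reads at day 3 and 28, 40 and 72 reads at day 6. On the scale of CPM these were 205, 147 and 176 at day 3 and 126, 162 and 170 at day 6, so that every later library was above every day 0 library. The mean was 176 ± 29.1 CPM at day 3 and 153 ± 23.8 CPM at day 6 (SD, n = 3 each). Against a floor of 3 reads per library, the circle was at least 16.1-fold higher at day 3 (edgeR adjusted p = 2.8e-04) and at least 13.9-fold higher at day 6 (adjusted p = 2.9e-04) than at day 0. With only the 6 libraries of a comparison in the fit, the adjusted p was 0.0711 and 0.0747, past the threshold.

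Each of the other Ccdc141 circles had its lowest mean at day 0. The exon 6 circle, the most abundant with 682 reads, had 197, 0 and 151 CPM at day 0, 376, 330 and 311 CPM at day 3 and 238, 353 and 294 CPM at day 6. Its day 0 libraries all lay below the later ones, but the change missed the threshold, with a log2 fold change of 1.54 ± 0.67 (SE) for day 3 (edgeR adjusted p = 0.422) and of 1.34 ± 0.67 for day 6 (adjusted p = 0.354). The exon 5 circle had 25, 0 and 51.7 CPM at day 0, 77.0, 287 and 149 CPM at day 3 and 144, 154 and 125 CPM at day 6, also with no overlap between day 0 and later days. The exon 7 circle was listed at 0 in all day 0 libraries, at 77.0, 10.5 and 55.7 CPM at day 3 and at 0, 89.3 and 109 CPM at day 6. For day 6 against day 0 it was called by DESeq2 (adjusted p = 0.0488) and not by edgeR. The exon 2 circle overlapped between days, with 40.6, 0 and 27.9 CPM at day 0, 9.63, 70.1 and 49.8 CPM at day 3 and 98.8, 0 and 128 CPM at day 6. Day 0 replicate 2 had no read of any of the 5.

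Together the 5 circles had 262, 0 and 231 CPM at day 0, 745, 845 and 742 CPM at day 3 and 606, 759 and 826 CPM at day 6. The 24 circRNAs that the table gives to Ccdc141 as host moved the same way. They summed to 175 ± 197 CPM at day 0, 1216 ± 331 CPM at day 3 and 1621 ± 271 CPM at day 6 (SD, n = 3 each). Their log2 fold change was 2.80 ± 0.44 (SE) at day 3 (edgeR adjusted p = 3.2e-05) and 3.22 ± 0.44 at day 6 (adjusted p = 2.1e-06), in a test where 163 and 233 of 4135 hosts were called.

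Among all intergenic circRNAs the one with the most reads, 2256 over all 9 libraries, was chr3:78966402-78966775 on the minus strand, 374 bp within Gm9762, a processed pseudogene. It had 562, 806 and 693 CPM at day 0, 1066, 838 and 1096 CPM at day 3 and 768, 1059 and 748 CPM at day 6. The day 3 libraries were all above the day 0 ones, and those of day 6 overlapped with both. The log2 fold change was 0.54 ± 0.29 (SE) for day 3 (edgeR adjusted p = 0.422) and 0.32 ± 0.29 for day 6 (adjusted p = 0.773) against day 0. Its 374 bases are 100% identical to exons 2 to 6 of Ube2d2a, a ubiquitin-conjugating enzyme, from the first exon edge to the last. A circle of those exons and one at the pseudogene cannot be told apart by this sequence, and 13 genes other than Gm9762 hold a match. The table lists 1 Ube2d2a circRNA with 2 reads in 1 library.

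This arrangement was not limited to Gm9762. Of the 18 intergenic circles that lay within 1 exon, 8 were in pseudogenes, and each of these had a copy over at least 95% of its length in another gene. In 6 of them, with 2321 reads, the copy ran from exon edge to exon edge of the other gene. They were Gm9762 with Ube2d2a, Gm4939 with Vps4b (97.3% identical), Gm9770 with Ctdsp2 (99.4%), Ppp1ccb with Ppp1cc (100%), Gm6475 with Cd2ap (96.3%) and Gm5539 with Morf4l1 (98.5%). Apart from the Gm9762 circle, these had few reads, such as 25 for Gm4939 and 19 for Gm9770.

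Gene copies also marked circles with ends in different genes. Of the 86 with both ends at exon edges, 38 (44.2%) had an end exon that matched the other gene over at least 80% of its length at 80% identity or more, with a median identity of 100%, and in 16 this held at both ends. These 38 held 568 of the 2064 reads of the 86, 20 were listed in at least 2 libraries and 8 had a circBase identifier, against 0 of the other 48. Examples are the RNA helicase neighbours Ddx19a and Ddx19b (chr8:110990477-111021095, 47 reads, 100% identity), the surface antigens Ly6c1 and Ly6c2 (21 reads, 100%) and the aldo-keto reductases Akr1b8 and Akr1b10 (20 reads, 99.2%). Reads of such matching exons cannot be told apart between the neighbours where the sequence is identical, and how the authors' counting placed them is not stated.

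The skeletal myosin heavy chain genes of chromosome 11, which encode adult fast motor proteins, gave 4 circles of this kind. They ran from Myh2 to Myh1 (11 and 14 reads), from Myh2 to Myh4 (23 reads) and from Myh1 to Myh4 (12 reads), with end-exon identities of 94.2 to 100%. All their reads came from day 3 and day 6 libraries. None passed the filter on low counts, so they were not tested.

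Clasp2, a protein that stabilises the plus ends of microtubules, had 6 circles. The one of exons 2 to 7 had 200, 281 and 291 CPM at day 0, 401, 140 and 243 CPM at day 3 and 166, 316 and 258 CPM at day 6, with overlapping days and log2 fold changes of 0.03 and -0.06 against day 0. The shorter circle of exons 2 to 6, which shares its start, had 372, 108 and 183 CPM at day 0, 96.3, 73.6 and 152 CPM at day 3 and 0, 60.9 and 47.3 CPM at day 6. Its day 6 libraries all lay below the day 0 ones, with a log2 fold change of -2.59 ± 1.02 (SE) that missed the threshold (edgeR adjusted p = 0.275) and was called by DESeq2 (adjusted p = 0.0255). The circle of exons 3 to 7 was listed at 28.9, 59.6 and 70.4 CPM at day 3 and at 0 in the 6 other libraries. It was at least 4.83-fold higher at day 3 than at day 0 (edgeR adjusted p = 0.422) and at least 4.85-fold lower at day 6 than at day 3 (adjusted p = 0.664).

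Spire1 had the circle chr18:67545615-67587859 (42245 bp, 511 reads), with 169, 30.8 and 67.7 CPM at day 0, 67.4, 291 and 214 CPM at day 3 and 184, 316 and 322 CPM at day 6. All day 6 libraries were above all day 0 libraries, and the log2 fold change of 1.61 ± 0.72 (SE) missed the threshold (edgeR adjusted p = 0.354). The 11 circRNAs with Spire1 as host changed by 1.39 ± 0.41 on the log2 scale for day 6 against day 0 (edgeR adjusted p = 0.0387). A longer Spire1 circle of 68569 bp was listed at 49.97, 0 and 0 CPM at day 0, 44.9, 0 and 82.1 CPM at day 3 and 0 in all day 6 libraries, at least 3.88-fold lower at day 6 than at day 3 (adjusted p = 0.664).

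On chromosome X, chrX:9773352-9786596 (692 reads) and chrX:9773352-9805724 (367 reads) share a start and overlap no GENCODE gene. The nearest, Hypm, lies 60332 and 41204 bp from them. RefSeq extends Sytl5, a synaptotagmin-like effector of vesicle traffic, from chrX:9747622 to 9998864 and so around both, while the GENCODE gene starts at chrX:9885622. The shorter had 200, 27.0 and 279 CPM at day 0, 119, 259 and 381 CPM at day 3 and 350, 162 and 455 CPM at day 6. The longer had 75, 193 and 318 CPM at day 0, 57.8, 144 and 193 CPM at day 3 and 121, 122 and 73.4 CPM at day 6. The days overlapped in both, and neither change passed the threshold, with log2 fold changes for day 6 against day 0 of 0.94 ± 0.62 (SE, edgeR adjusted p = 0.467) and -0.89 ± 0.81 (adjusted p = 0.772).

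**Figure D5:**
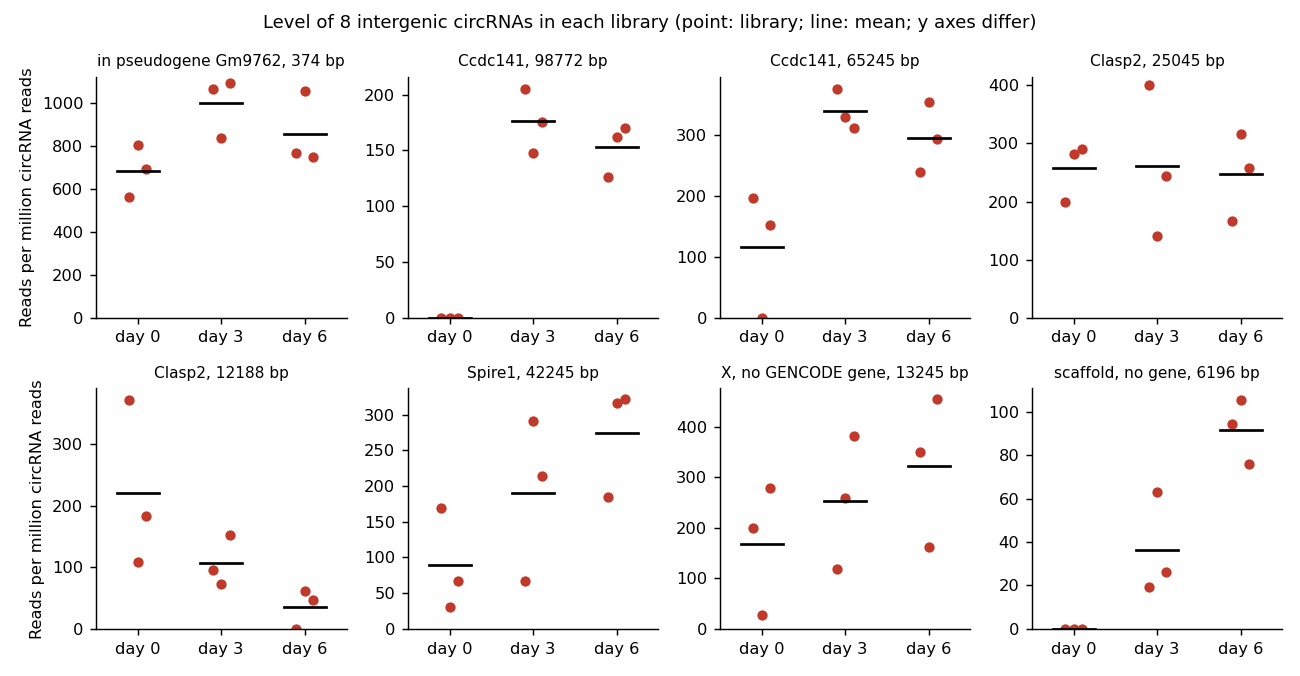
Level in CPM (y axes, which differ between panels and start at 0) of 8 intergenic circRNAs in each library (points) by day, with the mean of 3 libraries as a line. The Ccdc141 circle of 98772 bp is at 0 in all day 0 libraries and at 126 CPM or more in all later ones, while the days overlap for the longer Clasp2 circle of 25045 bp.

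The days also overlapped in the other circles among the 12 with the most reads. That between Nav1, a microtubule-associated protein, and Gm38399 (chr1:135602545-135607904, 635 reads) had 209, 262 and 394 CPM at day 0, 238, 358 and 114 CPM at day 3 and 98.8, 56.8 and 355 CPM at day 6, and the RefSeq Nav1 gene holds both of its ends. The circle at Layn, a hyaluronan receptor (chr9:51053396-51063272, 476 reads), had 284, 34.7 and 203 CPM at day 0, 132, 319 and 114 CPM at day 3 and 89.8, 64.9 and 279 CPM at day 6. Only 1 of its ends lies in the GENCODE Layn gene, and the RefSeq gene Gm32681 holds both. The Lncpint circle with the most reads (chr6:31093363-31181149, 426 reads) had 272, 147 and 147 CPM at day 0, 215, 172 and 73.3 CPM at day 3 and 207, 118 and 114 CPM at day 6. None of these 3 circles was called. The circle from E230016M11Rik to A430010J10Rik (chr6:67077248-67116767, 400 reads) averaged 129 ± 60.3, 181 ± 73.4 and 134 ± 51.3 CPM at days 0, 3 and 6. That in 2900026A02Rik (chr5:113175205-113193907, 377 reads) averaged 133 ± 131, 92.8 ± 62.2 and 165 ± 126 CPM (SD, n = 3 each).

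Several circles were listed at 0 in all day 0 libraries and missed the edgeR threshold at later days. At Pum3, an RNA-binding protein of ribosome biogenesis, chr19:27386618-27399821 had 70.6, 0 and 26.4 CPM at day 3 and 153, 85.2 and 75.8 CPM at day 6. It was at least 9.54-fold higher at day 6 than at day 0 (edgeR adjusted p = 0.162, DESeq2 adjusted p = 0.00828). It stood above 0 in all 3 day 6 libraries.

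The scaffold circle JH584304.1:38115-44310 had 19.3, 63.1 and 26.4 CPM at day 3 and 94.3, 105 and 75.8 CPM at day 6, and was at least 8.38-fold higher at day 6 than at day 0 (edgeR adjusted p = 0.186, DESeq2 adjusted p = 0.00451). Its day 6 libraries were above its day 3 ones, and no GENCODE gene is annotated at its place. The circle at the lincRNA gene Gm27188 (chr9:72230266-72233329) had 41.7, 0 and 73.3 CPM at day 3 and 198, 0 and 75.8 CPM at day 6. It was at least 8.32-fold higher at day 6 than at day 0 (edgeR adjusted p = 0.225, DESeq2 adjusted p = 0.0384). The Gm45194 circle had 0, 80.6 and 70.4 CPM at day 3 and 126, 0 and 66.3 CPM at day 6, which was at least 4.59-fold higher at day 3 (adjusted p = 0.422). In Slc8a1, the sodium and calcium exchanger, a circle within 1 exon (chr17:81647809-81649638, 1830 bp) had 54.6, 98.2 and 20.5 CPM at day 3 and 0, 0 and 80.5 CPM at day 6, and was at least 5.27-fold higher at day 3 (adjusted p = 0.422). The circle chr8:60714062-60734179, which overlaps no gene of its strand, had 22.5, 21 and 114 CPM at day 3 and 0, 0 and 23.7 CPM at day 6, and was at least 4.80-fold higher at day 3 (adjusted p = 0.422).

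The circle chrX:68028519-68043586, which overlaps no gene of either annotation and lies 18340 bp from Mir509, was listed at 0, 46.3 and 0 CPM at day 0, at 0 in all day 3 libraries and at 49.4, 0 and 42.6 CPM at day 6, and was at least 3.18-fold higher at day 6 than at day 3 (edgeR adjusted p = 0.664).

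Of the circles for which neither end lay in or within 5 kb of a gene, 204 (21.8%) with 4115 reads, the most abundant besides the X pair and the scaffold circle were in 2 places. On chromosome 16, chr16:94060693-94063199 (144 reads, 8 libraries) averaged 53.3 ± 27.4, 63.7 ± 41.0 and 48.6 ± 54.7 CPM at days 0, 3 and 6, and chr16:94060693-94065197 (105 reads, 4 libraries) averaged 11.9 ± 20.7, 67.1 ± 61.0 and 46.0 ± 79.6 CPM (SD, n = 3 each). Both lie within the RefSeq lncRNA gene Gm31175. On chromosome 1, chr1:78716421-78722008 (123 reads, 5 libraries) averaged 14.6 ± 25.3, 52.1 ± 57.8 and 67.3 ± 61.7 CPM, and 1 of its ends lies in the RefSeq lncRNA gene Gm38631. The days overlapped in all 3.

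A microRNA hairpin lay on the same strand within 9 intergenic circles. Of these, 3 had 1 end in Pank1, a pantothenate kinase gene, and enclosed Mir107. They share the end chr19:34795615, which lies 11325 bp downstream of the GENCODE gene and also outside the RefSeq gene. Their other ends, inside Pank1, lie at 34821889, 34827373 and 34841109, with 38, 59 and 16 reads. The mature RNA of its 3′ arm is given from RefSeq to show the seed, bases 2 to 8, in capitals.
mmu-miR-107-3p: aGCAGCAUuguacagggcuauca
The shortest of the 3 had 0, 57.8 and 0 CPM at day 0, 0, 49.1 and 26.4 CPM at day 3 and 0 in all day 6 libraries, at least 2.30-fold lower at day 6 than at day 3 (edgeR adjusted p = 0.664). Whether the hairpin's intron remains in these circles was not measured, since the reads counted cross only the back-splice junction.

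Lists of genes of muscle and other programmes had few intergenic neighbours. Of 41 muscle genes, 6 neighboured 11 intergenic circles with 1608 reads, namely Atp2a1, Ccdc141, Myh1, Myh2, Myh4 and Myog. Ccdc141 alone gave 5 of these circles and 1539 of the reads. The list that includes it was chosen with earlier results of these data known. Of these 11, 5 were tested. The only edgeR call was that of the Ccdc141 exon 8 circle described above, higher at day 3 and at day 6 than at day 0. DESeq2 also called the Ccdc141 exon 7 circle, higher at day 6 than at day 0 (adjusted p = 0.0488). Of all circRNAs tested, 1.31% were called higher at day 3 and 1.47% at day 6 against day 0. The Atp2a1 circle, at the gene of a sarcoplasmic calcium pump, had 6 reads in 1 day 0 library, and the one nearest to Myog, a myogenic factor, had 3 reads in 1 day 6 library. None of 25 cell cycle genes, 10 matrix genes or 18 annotated noncoding RNA loci neighboured an intergenic circle. The locus of Cdr1as, a well-known circRNA antisense to Cdr1, was overlapped by 0 intergenic circles, and no circRNA of the table named Cdr1 as host. Hosts named Cdr1os, the antisense gene of that locus, were not counted. The table holds circRNAs only, so the labels of myoblast and later stages were not checked against linear marker transcripts.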

How the data were processed

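The authors deposited 1 table of raw counts of back-splice reads per circRNA and library, with locus, type, host and circBase identifier. BWA and build GRCm38.p4 (mm10) are named, per the submitters' processing notes. The circRNA caller, versions and filters are not named in the labels or files used here. Per the labels' protocols, bead clean-up and DNase treatment served to enrich circRNAs. The names of all count columns matched 1 sample each.

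Deposited coordinates were set against GENCODE M21 and the RefSeq gene table of GRCm38.p6. Copies were sought with BLAST 2.17.0. The whole table was tested with edgeR 4.0.16 (R 4.3.3) on the deposited counts, using TMM, a filter of minimum count 5 and minimum total 15, group means over 9 libraries (6 residual degrees of freedom), Benjamini-Hochberg adjustment at 0.05 and a prior count of 0.125. An approximate SE was derived from the size of the log2 fold change over the root of F. A group at 0 gives a bound against 3 reads per library. The test was tested on simulated data, and DESeq2 1.42.0 was an alternative, run on the same filtered circRNAs. Reads carry no molecular identifiers, so only counting error is covered by intervals and floors.

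Named circles are those called, the 12 with the most reads, the 5 with the largest fold change per comparison, the 3 longest and 3 shortest overall and in at least 2 libraries, those of the 5 genes with most circles, those of the gene lists and up to 6 far from genes. The members and lists were chosen with earlier results of these data known. Hosts' sums, shared copies and the left-out circles of the read share were chosen after seeing the data. Some circles that this rule names are not reported here.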

Additional observations from a re-analysis of the deposited data

How the results depend on the processing

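Of the fold changes of reported circles, 1068 values kept direction and side of the threshold, 4 passed it only with DESeq2 and 2 lost it when only the 2 groups were fitted. The other 56 values, over 22 fold changes, changed sign, and 0 of them were called. A further 16 values were left out because the remaining libraries of a group had no reads. The table-wide calls for day 3 against day 0 were 129, and 262 with DESeq2 and 30 with only the 2 groups fitted. For day 6 against day 0 they were 162, 449 and 70, and for day 6 against day 3 they were 5, 20 and 0, with 9 without a filter and 5 to 8 when a library was left out. Intergenic calls became 0 for both comparisons with day 0 when only the 2 groups were fitted, and 9 with DESeq2 for day 6 against day 0, or 1 to 2 when a library was left out: Gm30624 was called without day 0 replicate 3 (adjusted p = 0.0118) and Gm10271 without day 6 replicate 3 (adjusted p = 0.0356).

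The log2 fold changes that changed sign are given as their range with a library left out. For day 3 against day 0, the range was -0.20 to 0.69 for chr16:94060693-94063199, -0.55 to 0.91 for the shortest Pank1 circle, -0.71 to 0.0304 for Nav1, -1.07 to 0.43 for 2900026A02Rik, -0.64 to 0.0420 for Lncpint, -0.43 to 0.32 for Clasp2 exons 2 to 7, -0.49 to 0.65 for Layn and -0.97 to 0.00585 for chrX:9773352-9805724. For day 6 against day 0, it was -1.41 to 0.42 for chr16:94060693-94063199, -0.54 to 1.26 for 2900026A02Rik, -0.26 to 0.34 for E230016M11Rik, -0.28 to 0.17 for Clasp2 exons 2 to 7 and -1.20 to 0.31 for Layn. For day 6 against day 3, it was -1.65 to 0.19 for chr16:94060693-94063199, -1.12 to 0.15 for chr16:94060693-94065197, -0.32 to 1.67 for chr1:78716421-78722008, -0.00451 to 1.20 for 2900026A02Rik, -0.41 to 0.26 for Lncpint, -0.38 to 0.37 for Clasp2 exons 2 to 7, -1.27 to 0.26 for Layn, -0.54 to 0.95 for Gm45194 and -0.68 to 0.0705 for chrX:9773352-9805724. With DESeq2, Lncpint (0.0387) and Clasp2 (0.00674) changed sign for day 6 against day 3, E230016M11Rik (-0.0332) for day 6 against day 0, and Clasp2 (-0.12) and Layn (-0.0203) for day 3 against day 0. With library totals only, Lncpint (0.00608), E230016M11Rik (-0.0163) and Clasp2 (-0.0660) did so in those comparisons, and Clasp2 also at a minimum count of 10 (-0.000342).

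The read share of day 6 minus day 3, -0.000623 points, was 0.00917 without the Gm9762 circle, 0.000993 without the Ccdc141 circles (both chosen after seeing the data) and -0.0132 to 0.00714 when a library was left out. The share of listed circRNAs, 0.0773 points higher at day 6 than at day 3, was -0.0325 among those in at least 2 libraries. The number per library differed by -9 to 27.5 for day 6 against day 0 and by -31.8 to 3.17 for day 6 against day 3 when a library was left out. Against intronic circRNAs, the share listed in no other library was -2.35 points at 5 reads or more (adjusted p = 0.107) and -3.84 to -2.14 with a library left out, and the median span differed by 1991 bp in those in at least 2 libraries and by -359 to 469 bp with a library left out.

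By either strand, 39 circles had both ends outside genes around a whole gene. With protein-coding genes only, 2 did so and 71 had ends in different genes. By RefSeq, an annotation added after seeing the data, 324 lie in 1 gene and 167 in none. The cause of these shifts was not tested. Replicate numbers did not pair the libraries (correlations of same-numbered deviations -0.0303 to 0.00950); the replicate block gave 144, 172 and 5 calls in the whole table and 1, 1 and 0 among intergenic circRNAs. The planned check of AG and GT beside the ends was not run. Depth limits circles with few reads most, since only 103 of 936 passed the filter.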
